A study of Homo sapiens with 8 samples.

Results

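The HOX genes of the HOXA, HOXB, HOXC and HOXD clusters were followed through ATAC-seq peak lists of NCI-H295R, an established cell line from a human adrenocortical carcinoma. ATAC-seq marks open chromatin by where the transposase Tn5 can insert adapters. The members were 38 HOX genes, out of 19970 protein-coding genes, and the peaks whose summit lay between the first and last member of a cluster (the span) or within 100 kb of it (the flanks). These windows held 70 of 61016 vehicle peaks. The spans were chr7:27100354-27200091 for HOXA (10 members), chr17:48528526-48728750 for HOXB (10 members), chr12:53938831-54056030 for HOXC (9 members) and chr2:176087487-176190907 for HOXD (9 members), all on hg38.

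The cells fell into 4 groups of 2 libraries that the labels call biological replicates. Vehicle cells had DMSO for 96 h. The EZH2i cells had the EZH2 inhibitor EPZ-6438 at 62 µM for 96 h, and the CBPi cells had the CBP inhibitor PRI-724 at 26 µM for 96 h. The FSK cells had 48 h of vehicle and then forskolin at 10 µM for 48 h. All groups are the same cell line, so each stands for a single tumour line. The authors deposited 1 peak list per group, so values have no replicate error, no test between groups was possible, and a difference between lists compares those lists. Read depth is unknown.

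HOX genes encode homeodomain transcription factors that set position along the body axis. Each cluster holds paralogs numbered from an anterior end (low numbers) to a posterior end (high numbers), and in development they open in that order. Polycomb repressive complex 2, whose methyltransferase is EZH2, marks silent HOX chromatin with methylation of histone H3 lysine 27. CBP is a histone acetyltransferase and coactivator, and forskolin activates adenylyl cyclase and raises cAMP. Histone marks, HOX transcripts and binding of these factors were not measured here.

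The promoters of 5 members are shown because they span what the lists showed at HOX starts. HOXA9 is a member whose start was covered in some lists and not in others, HOXA13, HOXC4 and HOXD8 carried large vehicle peaks of their clusters, and HOXD10 had no peak within 1 kb of its start in any list. HOXC4 and HOXD10 were chosen after their values were seen. Each runs from 250 bases before the RefSeq start to 50 after it (GRCh38.p14, the coordinates of hg38), 5′ to 3′ on the gene's strand, with every CpG in capitals. HOXA9 lies at chr7:27165488-27165787 (minus strand), HOXA13 at chr7:27200042-27200341 (minus), HOXC4 at chr12:54016638-54016937 (plus), HOXD8 at chr2:176129455-176129754 (plus) and HOXD10 at chr2:176116528-176116827 (plus).
HOXA9: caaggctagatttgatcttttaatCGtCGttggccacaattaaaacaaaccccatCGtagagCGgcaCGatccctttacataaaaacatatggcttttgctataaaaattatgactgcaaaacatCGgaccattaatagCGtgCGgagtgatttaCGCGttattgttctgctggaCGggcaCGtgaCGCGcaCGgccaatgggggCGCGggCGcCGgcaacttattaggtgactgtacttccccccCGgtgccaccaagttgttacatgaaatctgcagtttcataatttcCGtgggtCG
HOXA13: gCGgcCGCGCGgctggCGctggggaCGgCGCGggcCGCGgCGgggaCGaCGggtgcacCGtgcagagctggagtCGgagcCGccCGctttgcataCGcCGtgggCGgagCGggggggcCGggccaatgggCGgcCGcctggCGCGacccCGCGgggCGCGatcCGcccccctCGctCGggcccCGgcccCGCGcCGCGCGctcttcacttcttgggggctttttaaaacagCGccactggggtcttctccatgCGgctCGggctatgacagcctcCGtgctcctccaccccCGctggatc
HOXC4: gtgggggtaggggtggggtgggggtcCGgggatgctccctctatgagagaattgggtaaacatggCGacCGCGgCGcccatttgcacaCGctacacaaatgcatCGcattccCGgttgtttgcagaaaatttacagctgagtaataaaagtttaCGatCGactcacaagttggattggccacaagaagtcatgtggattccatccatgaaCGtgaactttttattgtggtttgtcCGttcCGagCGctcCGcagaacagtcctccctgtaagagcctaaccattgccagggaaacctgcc
HOXD8: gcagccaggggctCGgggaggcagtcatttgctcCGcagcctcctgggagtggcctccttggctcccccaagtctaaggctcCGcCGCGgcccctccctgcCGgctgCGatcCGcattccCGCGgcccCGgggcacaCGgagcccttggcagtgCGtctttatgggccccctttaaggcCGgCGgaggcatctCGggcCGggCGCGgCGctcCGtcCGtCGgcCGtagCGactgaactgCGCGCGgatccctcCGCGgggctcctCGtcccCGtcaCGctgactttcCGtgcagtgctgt
HOXD10: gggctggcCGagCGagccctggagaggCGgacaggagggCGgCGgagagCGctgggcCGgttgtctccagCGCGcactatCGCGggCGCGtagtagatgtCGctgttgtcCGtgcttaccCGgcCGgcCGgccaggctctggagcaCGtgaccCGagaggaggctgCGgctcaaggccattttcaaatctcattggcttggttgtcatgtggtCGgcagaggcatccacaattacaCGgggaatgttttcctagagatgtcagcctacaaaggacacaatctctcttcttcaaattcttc
These 300 bases hold 22 CpGs at HOXA9, 44 at HOXA13, 15 at HOXC4, 34 at HOXD8 and 23 at HOXD10. Vehicle peaks covered 0 of the bases at HOXA9, 300 at HOXA13, 300 at HOXC4, 205 at HOXD8 and 0 at HOXD10. The HOXA9 bases covered were 0 in the EZH2i list, 151 in the CBPi list and 126 in the FSK list. HOXD10 stayed at 0 in all 4 lists although its promoter holds about as many CpGs as that of HOXA9.

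The lists were not of equal length. The vehicle list held 61016 peaks, the EZH2i list 41086, the CBPi list 47161 and the FSK list 51095. Each peak carries the authors' area of significance, which is at least 200 in every list. It was used within a list, to rank, bin and trim peaks and for mean areas. Of 12 adrenocortical marker genes, 9 had a peak at their start or gene end in the vehicle list, 8 in the EZH2i list, 8 in the CBPi list and 10 in the FSK list. CYP11B1 and HSD3B2 had none in any list. Over all protein-coding genes the share with such a peak was 68.2% in vehicle, 66.2% with EZH2i, 68.1% with CBPi and 66.1% with FSK. The adrenocortical counts are too small to be read as different from it. Fibroblast markers had such a peak for 2 of 6 genes in each list (COL1A1 and PDGFRA), endothelial markers for 1 of 4 (KDR), chromaffin markers for 1 of 4 (CHGA), and immune markers for 0 of 4 in the vehicle and FSK lists and 1 of 4 (CD3E) in the others.

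Vehicle cells held open chromatin in all 4 clusters, most densely in HOXA. The HOXA window held 26 vehicle peaks, HOXB 16, HOXC 12 and HOXD 16, and 48 of the 70 lay inside the spans. Inside the spans this came to 18 peaks per 100 kb in HOXA, 11.6 in HOXD, 7.68 in HOXC and 4.49 in HOXB. Peaks covered 15.1% of the HOXA span, 9.17% of HOXD, 5.64% of HOXC and 3.2% of HOXB. The order of the clusters was the same by both measures. Of the 70 peaks, 42 had an area above the median of the whole vehicle list (581.4), and 35 lay within 1 kb of an annotated end of a protein-coding gene, here called gene-end peaks.

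The HOXA peak of largest area lay at HOXA13, a gene of the posterior group that patterns distal limb and urogenital structures. It ran from 27198429 to 27201093 with an area of 4348, and 4.24% of vehicle peaks had a larger area. In HOXD the largest peak of the window was in the flank at LNPK (176001207 to 176003136, area 4081), and inside the span it lay at HOXD8 (176129550 to 176131088, area 3026). In HOXC the largest lay at HOXC13, a gene known for its role in hair and nail formation (53938152 to 53939578, area 2691), followed by the start that HOXC4, HOXC5 and HOXC6 share in the annotation (54016565 to 54018454, area 2455). HOXB had its largest peak in the flank (48816673 to 48817592, area 2171). Its largest peak inside the span lay between HOXB9 and HOXB13 (48646007 to 48647806, area 1777).

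Long stretches of each span had no vehicle peak. The longest was 80379 bp in HOXB, ending at the HOXB13 peak, and a further 40425 bp (48544876 to 48585300) from HOXB2 into HOXB3 were also free of peaks. HOXD had a stretch of 40503 bp over HOXD4 and HOXD3. HOXA had 29625 bp from HOXA2 across part of HOXA3 to HOXA4, and HOXC had 22261 bp at the HOXC4 end. These 4 longest stretches lay at nearly the same place in every list. In the EZH2i list they measured 80412 bp in HOXB, 40776 bp in HOXD, 29586 bp in HOXA and 22090 bp in HOXC. In HOXD and in HOXA the longest stretch of every list lay over the anterior paralogs. HOXB differed in the FSK list, where the stretch of 40425 bp became 56835 bp and reached from the HOXB1 end of the span.

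**Figure D1:**
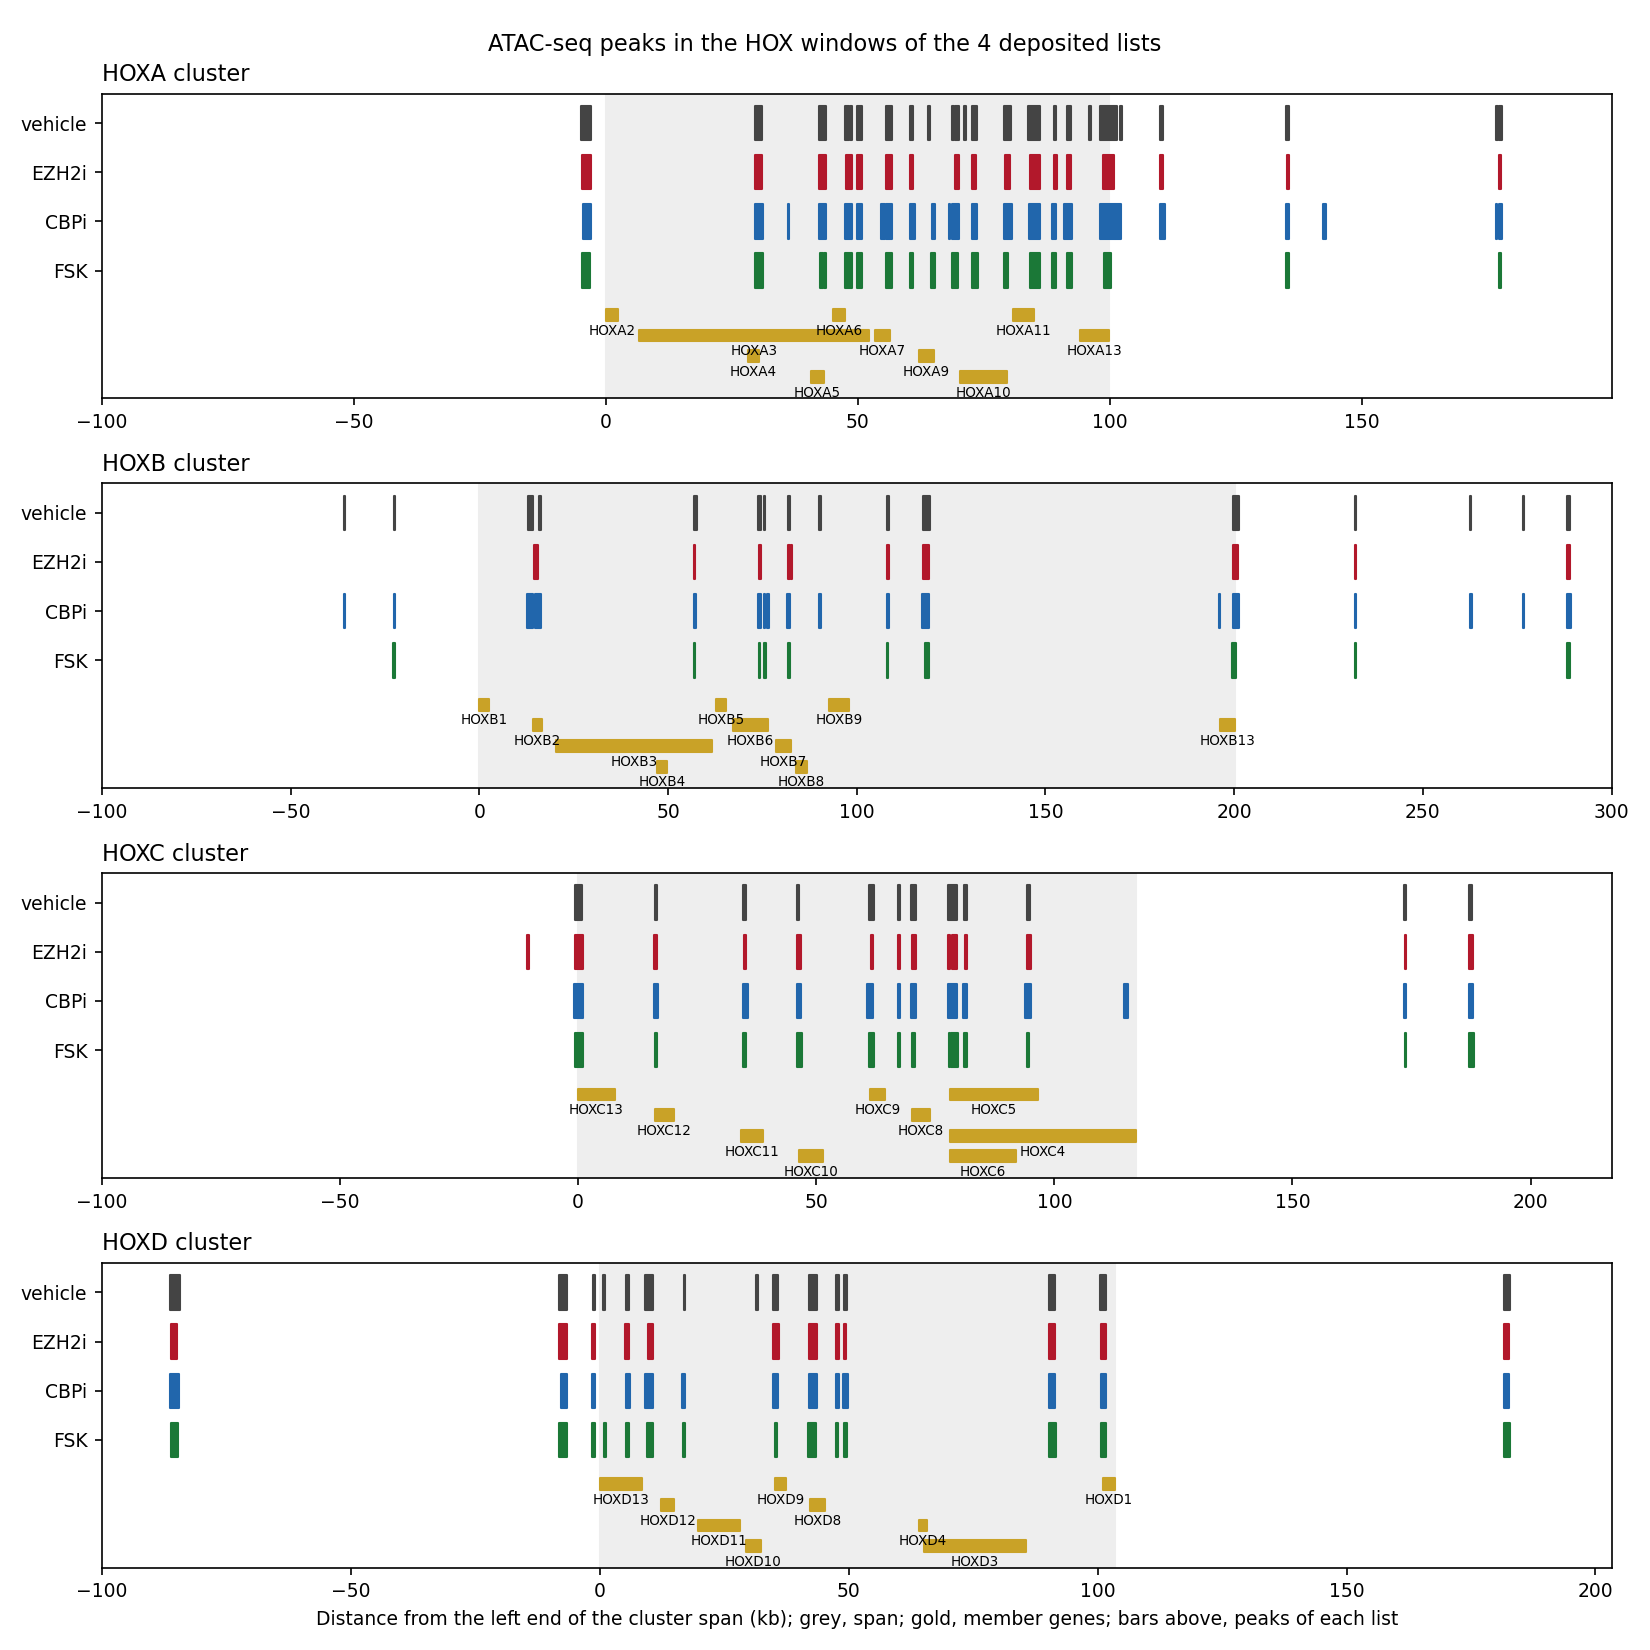
Peaks of the 4 lists along each HOX window, with distance from the left end of the cluster span in kb on the horizontal axis, the span in grey and the member genes in gold (peaks under 300 bp are drawn slightly wider so that they can be seen). HOXA carries the densest peaks (18 vehicle peaks per 100 kb of span), and the empty stretches of HOXB (80379 bp in the vehicle list) and HOXD (40503 bp) recur in every list.

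Most HOX genes had a start-site peak, meaning a peak within 1 kb of the start, and few changed between lists. The start came from the RefSeq promoter table for 20 members, and where a member had several starts a peak at any of them was enough. The other 18 had no entry there, so a peak within 1 kb of either annotated end was counted. In the vehicle list 26 of 38 members had such a peak, 68.4% (Wilson 95% interval 52.5 to 80.9), beside 68.2% of all protein-coding genes. The EZH2i list gave 25 members (65.8%, beside 66.2% of all genes), the CBPi list 26 (68.4%, beside 68.1%) and the FSK list 25 (65.8%, beside 66.1%). As a group the HOX genes were therefore near the background in every list.

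The clusters were unlike each other at their starts. All 9 HOXC members had a start-site peak in every list, although HOXC4, HOXC5 and HOXC6 share a start and count the same peaks. In HOXA 9 of 10 members had one in the vehicle, CBPi and FSK lists and 8 in the EZH2i list. In HOXB 4 of 10 had one in the vehicle, EZH2i and CBPi lists and 3 in the FSK list, and in HOXD 4 of 9 had one in each list (HOXD1, HOXD8, HOXD9 and HOXD13). By position, 5 of 11 members of paralog groups 1 to 4 had a start-site peak in the vehicle list, 9 of 11 of groups 5 to 8, and 12 of 16 of groups 9 to 13. All 4 members of group 13 (HOXA13, HOXB13, HOXC13 and HOXD13) had one in every list. Of group 3, HOXA3 had one and HOXB3 and HOXD3 had none. HOXA3 has 7 starts in the promoter table, and only the start at 27150950 lay within 1 kb of a peak. By the upstream end, no member of group 3 had a peak in any list. HOXA2, HOXB1, HOXB3, HOXB4, HOXB5, HOXB9, HOXD3, HOXD4, HOXD10, HOXD11 and HOXD12 had no peak within 1 kb in any list.

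**Figure D2:**
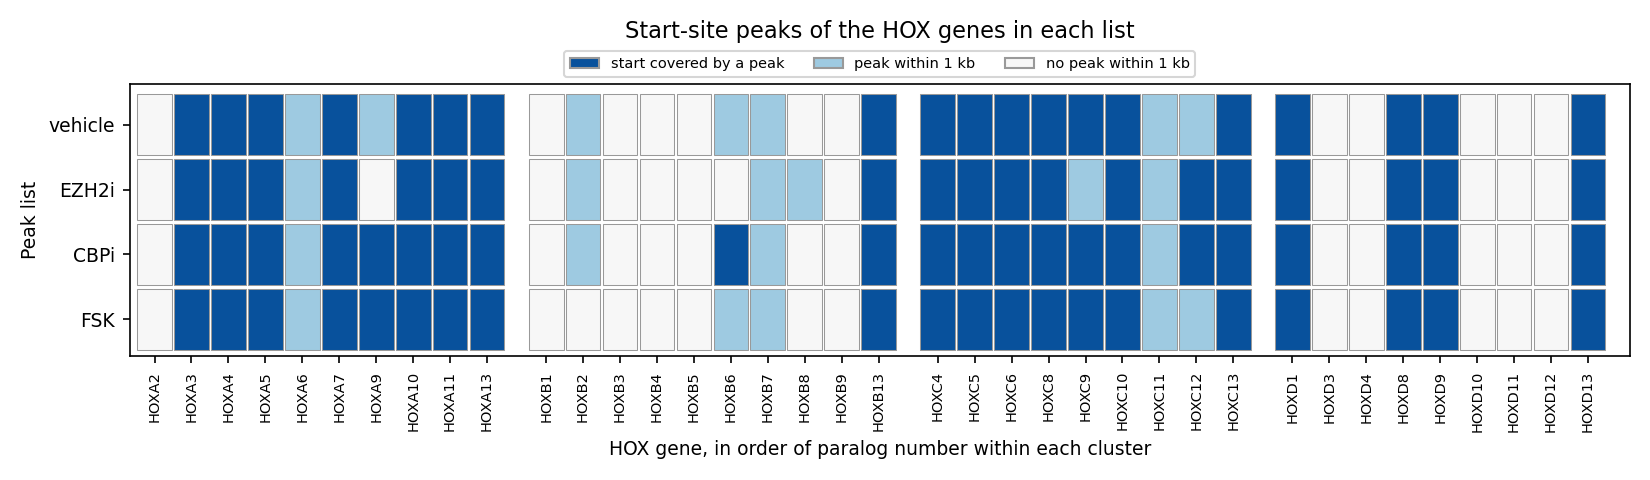
Start-site peaks of the 38 HOX genes (horizontal axis, by cluster and paralog number) in each list (vertical axis), with dark cells where a peak covers the start or a counted end, light cells where a peak lies within 1 kb and white cells where none does. HOXC is filled in every list (9 of 9), and the cells that differ in having a peak within 1 kb are HOXA9, HOXB2, HOXB6 and HOXB8.

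The presence of a start-site peak differed between lists at 4 genes, HOXA9, HOXB2, HOXB6 and HOXB8. With EZH2i 2 of 26 members lost theirs (HOXA9 and HOXB6, beside 3.89% of all genes that had one). HOXB8, 1 of 12, acquired one, counted from its 3′ end (beside 1.97% of genes without one). With CBPi 0 of 26 lost theirs (beside 1.92%) and 0 of 12 acquired one (beside 3.7%). With FSK 1 of 26 lost it (HOXB2, beside 4.24%) and 0 of 12 acquired one (beside 2.61%). These counts are too small to be read as different from the background. Members were also placed by the upstream end on the strand of their cluster's promoter entries. Then 25 had a peak in vehicle, 22 with EZH2i, 25 with CBPi and 24 with FSK. HOXA9, HOXB6 and HOXB2 lost theirs with EZH2i in that count, and no member acquired one with EZH2i.

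HOXA9, a gene known for its part in haematopoiesis and leukaemia, had low-ranking peaks at different places in different lists. In the vehicle list the nearest peak (27164332 to 27164764, area 216.0) lay inside the gene 773 bp from the start at 27165537. It was absent from all 3 treated lists. The CBPi list had a peak over the start (27165138 to 27165638, area 354.1), as did the FSK list (27164925 to 27165613, area 365.3), while the nearest EZH2i peak lay 4081 bp away. The vehicle peak was small, since 96.0% of the vehicle list had a larger area, and 73.4% and 67.6% of the CBPi and FSK lists had a larger area than their peaks over the start.

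HOXB2, an anterior gene of hindbrain patterning, had a vehicle peak 39 bp outside its annotated left end, at 48541511 to 48542616 (area 600.8), and another inside the gene, at 48544349 to 48544875 (area 279.8). By the minus strand of the HOXB1 promoter entry, that left end is the 3′ end. The peak inside the gene lay 234 bp from the upstream end at 48545109. The CBPi list had peaks over both, at 48541277 to 48542639 (area 962.8) and 48543234 to 48544905 (area 853.9). The EZH2i list held neither, and had a peak between them instead (48543091 to 48544079, area 368.2), which touched no vehicle peak and lay 1030 bp from the upstream end. The FSK list had no peak here, and its nearest lay 36465 bp from the gene. At HOXB6 the vehicle peak (48603943 to 48604185, area 270.1) lay 801 bp from the annotated end, the FSK peak 551 bp and the nearest EZH2i peak 1931 bp, whereas a CBPi peak (48604770 to 48605320, area 392.6) covered that end. HOXB8 came within 1 kb of a peak only in the EZH2i list (967 bp, against 1499 bp in the vehicle list, 1518 bp in the CBPi list and 1507 bp in the FSK list). That EZH2i peak (48611032 to 48611379, area 207.0) lay 15 bp from the end of HOXB7 and was close to the smallest area in its list. It lay near the 3′ end of HOXB8 and 3913 bp from its upstream end.

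Starts that kept a peak in every list could still differ in its form. At the shared start of HOXC4, HOXC5 and HOXC6 the vehicle and CBPi lists each had a single peak, 1890 bp and 1870 bp wide, larger in area than all but 12.3% and 12.1% of their lists. The EZH2i list had a peak of 460 bp over the start (54016499 to 54016958, area 395.9) and another of 1113 bp inside the gene (54017346 to 54018458, area 1239). The FSK list likewise had 303 bp over the start (54016625 to 54016927, area 215.6) and 1506 bp inside (54017079 to 54018584, area 1314). The part over the start thus ranked low, larger peaks making up 65.0% of the EZH2i list and 95.9% of the FSK list. HOXA13 kept its start covered in all lists with widths of 2665 bp in vehicle, 2201 bp with EZH2i, 2890 bp with CBPi and 1398 bp with FSK. HOXD9 had a start peak that ranked below 40.4% of vehicle peaks, 67.5% of EZH2i peaks, 46.3% of CBPi peaks and 98.2% of FSK peaks. HOXD8 varied less, at 8.98%, 13.7%, 10.8% and 13.4%.

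A vehicle peak was called lost when no peak of the treated list covered 1 bp of it, and a treated peak was called gained when no vehicle peak touched it. Both words describe lists, since a peak can leave a list by falling just under the caller's threshold. Where a share is called expected, it is the share lost in the whole vehicle list for peaks of the same area bin and class, gene-end or distal. Other shares stand beside the plain whole-list share, which is not matched for area or class, or alone. The Wilson 95% intervals take each peak as independent and show only counting error.

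CBPi left the HOX windows with the fewest lost peaks of the 3 treatments. It lost 5 of 70 vehicle peaks, 7.14% (3.09 to 15.7), beside 30.6% of the whole vehicle list and an expected 20.7%. HOXA lost 3 of 26, HOXD 2 of 16, HOXB 0 of 16 and HOXC 0 of 12. All 5 lay inside the spans (5 of 48) and none in the flanks (0 of 22). The gap to expectation lay in the distal peaks, of which 1 of 35 was lost (2.86%, interval 0.506 to 14.5, expected 30.7%), while gene-end peaks lost 4 of 35 (11.4%, expected 10.7%). Among the 28 peaks at or under the median area 5 were lost (17.9%, interval 7.88 to 35.6, expected 45.4%), beside 55.8% of such peaks in the whole list. In the 2 Mb on either side of the windows, a comparison chosen after seeing the data, CBPi lost 85 of 518 vehicle peaks (16.4%, interval 13.5 to 19.8), an interval that overlaps that of the windows. With lists cut to the same length by area, 1.96% of HOX peaks and 18% of the whole list were lost.

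The CBPi losses were at HOXD13, HOXD10, HOXA10, HOXA9 and HOXA13. The largest was the peak near the left annotated end of HOXD13 (176088161 to 176088610, area 556.3), also lost with EZH2i and kept with FSK. The start of HOXD13 itself kept its peak in every list. The peaks in the 3′ part of HOXD10 (176118965 to 176119291, area 270.8), at HOXA10 (27171399 to 27171875, area 227.4), in HOXA9 (area 216.0) and in HOXA13 (27196279 to 27196578, area 206.6) were lost with all 3 treatments. In the windows these were the only 4 peaks lost with every treatment, and all 4 had areas under the list median.

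EZH2i lost 19 of 70 vehicle peaks, 27.1% (18.1 to 38.5), beside 37.7% of the whole list and an expected 28.7%. The HOX windows were thus near what their peak areas and classes gave. HOXB lost 8 of 16 (expected 42.1%), HOXA 7 of 26 (26.9%, expected 32.6%), HOXD 4 of 16 (25.0%, expected 15.7%) and HOXC 0 of 12 (interval up to 24.2%, expected 19.8%). Each cluster's interval held its expected share. Of the 19, 18 were among the 28 peaks at or under the median area, and 1 of 42 larger peaks was lost, the HOXB2 peak of area 600.8. These shares, 64.3% and 2.38%, stand beside expected shares of 61.7% and 6.69%. In the whole list 67.7% and 7.62% of such peaks were lost. The next in area were the HOXD13 end peak (556.3) and a peak between HOXA9 and HOXA10 (27168959 to 27169426, area 515.2). With lists of equal length EZH2i lost 5.88% of HOX peaks and 17.7% of the whole list.

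FSK lost 15 of 70 vehicle peaks, 21.4% (13.4 to 32.4), beside 30.2% of the whole list and an expected 24.7%. HOXA lost 7 of 26 (26.9%, expected 27.9%), HOXB 6 of 16 (37.5%, expected 35.8%), HOXD 2 of 16 (12.5%, expected 13.9%) and HOXC 0 of 12 (expected 17.2%). The largest was a flank peak 10619 bp from the start of HOXA13 (27210401 to 27210971, area 626.0), the only HOX peak lost with FSK alone. The HOXB2 peak (600.8) and a HOXB flank peak 76351 bp from HOXB13 (48804944 to 48805260, area 387.8) followed, and both were also lost with EZH2i. When only the 50% of peaks with larger area in each list were compared, FSK lost 40.5% of HOX peaks beside 26.8% of the whole list. The side on which the HOX share fell from the whole list thus turned with that setting.

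HOXC lost 0 of 12 vehicle peaks to every treatment, from HOXC13 through the shared HOXC4 start to its right flank. Its smallest vehicle peak, at HOXC12 (53955043 to 53955394), had an area of 214.8 and was still covered in all 3 treated lists. Among the 50% of peaks with larger area, however, HOXC lost 4 of 8 with EZH2i (50.0%, beside 35.4% of the whole list). With FSK it also lost 4 of 8 (50.0%, beside 26.8%), since its peaks stayed in those lists at lower rank.

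**Figure D3:**
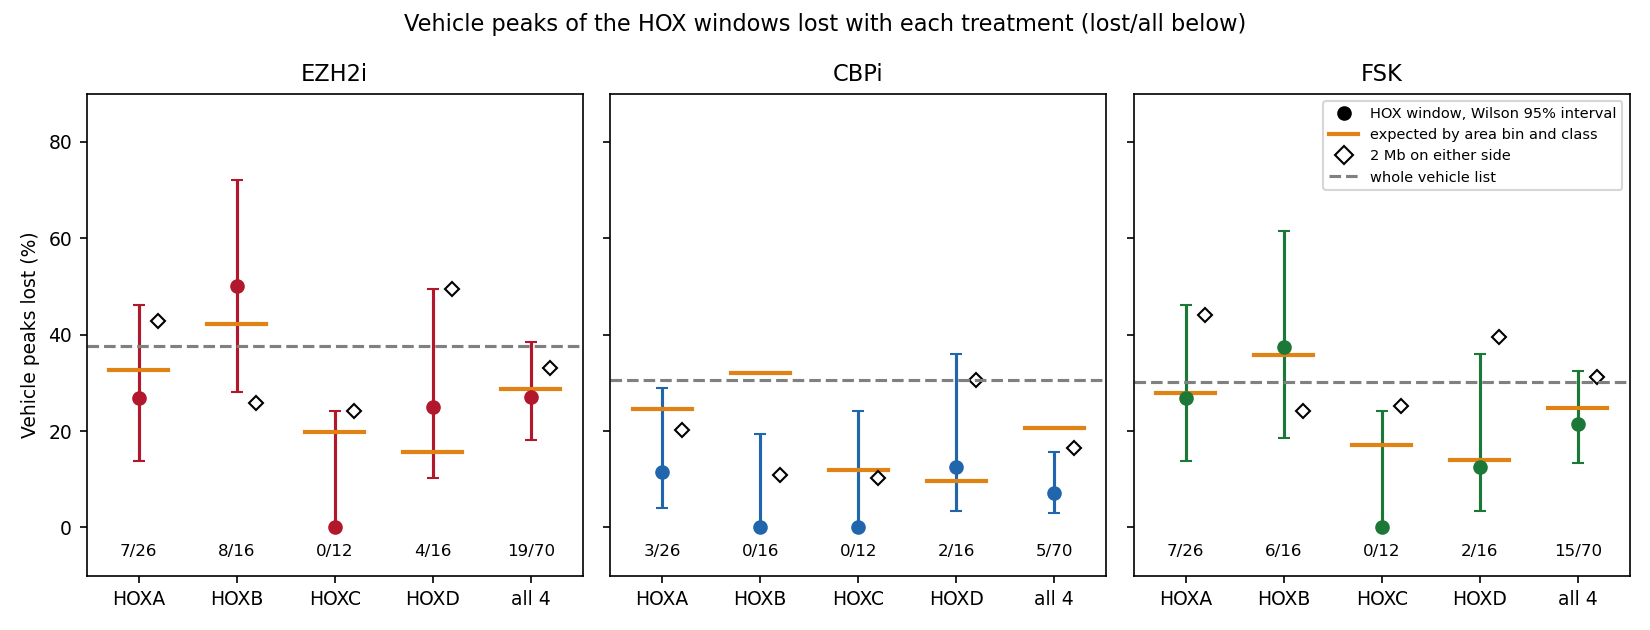
Share of vehicle peaks lost with each treatment in percent, by cluster and for all 4 windows, with Wilson 95% intervals, the share expected from peak area and class (orange bars), the 2 Mb on either side (open diamonds) and the whole vehicle list (dashed line). CBPi lies lowest over all windows (5 of 70), HOXC is at 0 with each treatment, and HOXB lost 8 of 16 with EZH2i and 0 of 16 with CBPi.

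HOXB had the widest range of losses over the treatments. Of its 16 vehicle peaks EZH2i lost 8 and FSK 6, and CBPi lost none (interval up to 19.4%, expected 32.0%). The peaks that EZH2i lost included both HOXB2 peaks, a HOXB6 peak, a peak between HOXB8 and HOXB9 (48618645 to 48618885, area 218.3) and 4 flank peaks. All of these were covered in the CBPi list. The flanking 2 Mb of HOXB lost 25.8% of vehicle peaks with EZH2i, 24.2% with FSK and 10.9% with CBPi, so low loss with CBPi was also measured around that window.

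The same peaks often left more than 1 list. Of the 70 vehicle peaks 50 were kept with every treatment (71.4%, interval 59.9 to 80.7), beside 52.6% of the whole list. Loss with EZH2i and FSK together but not CBPi took 10 peaks (14.3%, interval 7.95 to 24.3), beside 5.78% of the whole list. Loss with all 3 took 4 (5.71%, interval 2.24 to 13.8), beside 17.9%. Loss with CBPi alone took 0 peaks (interval up to 5.2%), beside 3.13%. The 3 comparisons share the vehicle list, so these patterns are not independent of each other. No share expected from area and class stands beside them, although the windows differ from the list in both. Gene-end peaks were 35 of 70 in the windows and 13490 of 61016 in the whole vehicle list. The part of peak size and class in these patterns was not tested. No lost peak was in the top 25% of vehicle areas.

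**Figure D4:**
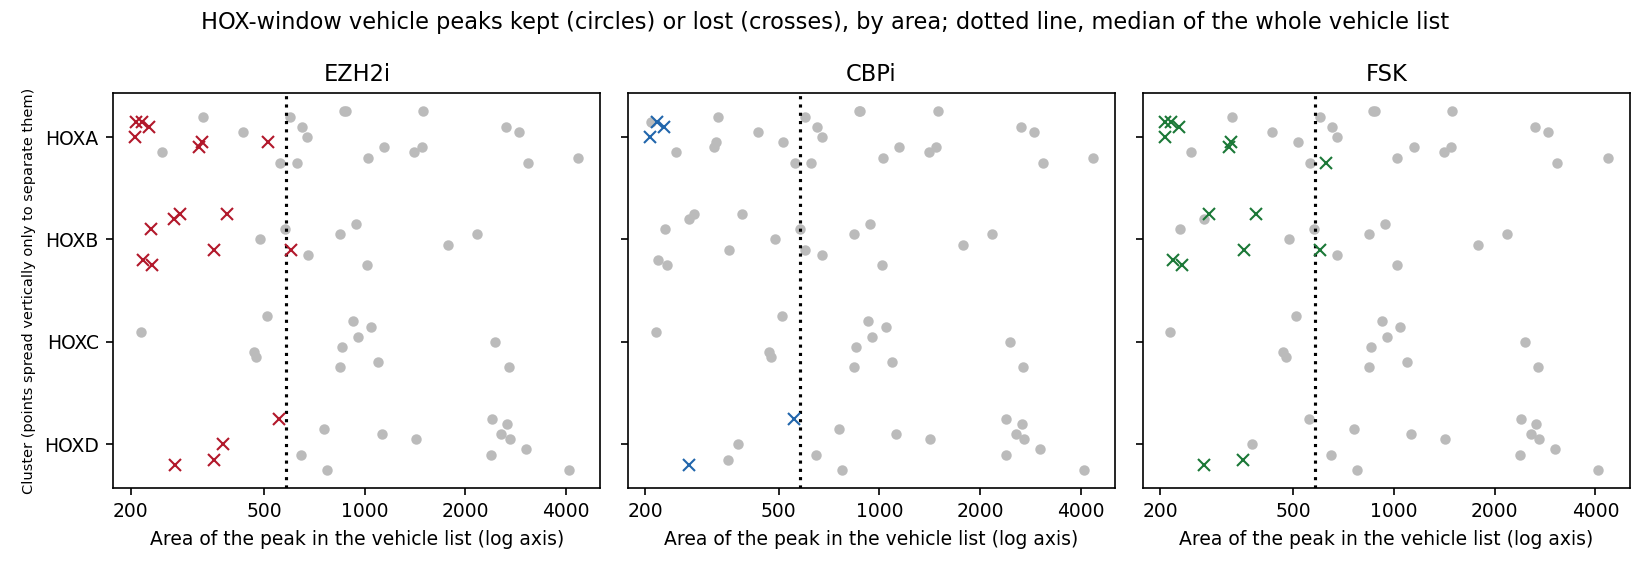
Area of each HOX-window vehicle peak in its own list (horizontal, log axis) by cluster, with crosses for peaks lost and grey circles for peaks kept, in a panel for each treatment. Crosses lie almost all left of the list median of 581.4 (dotted line), with 1 above it for EZH2i, 0 for CBPi and 2 for FSK.

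Gained peaks were few. CBPi had 8 of 69 peaks gained (11.6%, interval 5.99 to 21.2), beside 10.7% of its whole list. EZH2i had 4 of 54 (7.41%, interval 2.92 to 17.6), beside 6.98%. FSK had 1 of 56 (1.79%, interval 0.316 to 9.45), beside 15.9%. With lists of equal length the FSK share was 12.2% in the windows and 19.8% in the whole list, and CBPi rose to 23% beside 18%, so the low FSK value depends on list length.

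The gained peaks lay mostly at HOX genes. The largest with CBPi were the peak over the HOXB6 end (392.6), a peak in HOXA7 (27154967 to 27155809, area 391.1) and a peak in the 3′ part of HOXC4 (54053399 to 54054297, area 381.2). The HOXA9 start peak followed (354.1). CBPi also gained a flank peak at EVX1 (27242654 to 27243270, area 226.6), the homeobox gene beside HOXA. The 4 gained with EZH2i were the HOXB2 peak (368.2), a flank peak 10627 bp from HOXC13 (53928112 to 53928485, area 269.8), a peak in HOXC10 (53985258 to 53985598, area 214.6) and the HOXB7 peak (207.0). The only peak gained with FSK was the one over the HOXA9 start (365.3). All 13 were smaller than their list's median area.

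Peaks covered more of the HOX windows with CBPi than in vehicle, against the direction of the whole list. CBPi peaks covered 65801 bp, 116% of the 56732 bp in vehicle, while its whole list covered 85.8% of the vehicle length. By cluster this was 144% in HOXC, 124% in HOXB, 114% in HOXA and 96.1% in HOXD. EZH2i covered 46467 bp (81.9%, whole list 73.7%) and FSK 45566 bp (80.3%, whole list 83.6%). FSK covered 53.7% of the vehicle length in HOXB and 106% in HOXC. These whole-list values are not matched for peak area or class, and gene-end peaks made up more of the windows than of the list. The part of area and class in the covered lengths was not tested. The mean area of the window peaks was 1101 in vehicle, 902.3 with EZH2i, 1221 with CBPi and 898.2 with FSK, each on its own list's scale. Over the whole lists the means were 1133, 1060, 1259 and 989.8, so the mean was higher with CBPi than in vehicle there too.

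The wider cover with CBPi was also seen peak by peak. Of 56 vehicle peaks matched to a single CBPi peak, 36 were wider in the CBPi list (64.3%) and the median width ratio was 1.06, beside 40.7% wider and 0.965 over the whole list. For EZH2i the ratio was 0.911 in the windows and 0.889 in the whole list, and for FSK it was 0.916 and 0.924. At HOXC11 the peak was 559 bp wide in vehicle, 431 bp with EZH2i, 957 bp with CBPi and 597 bp with FSK. At HOXC12 these widths were 352, 621, 706 and 308 bp, and at HOXC10 they were 301, 298, 956 and 928 bp. Depth is unknown, and its part in these widths was not tested, nor was the part of peak area and class.

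**Figure D5:**
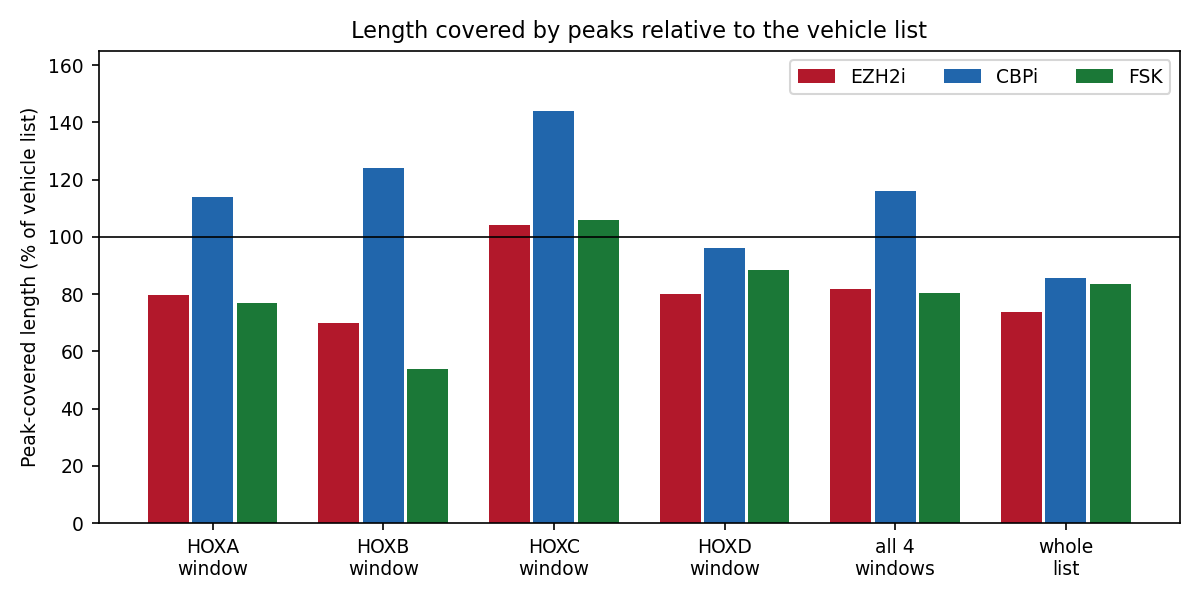
Length covered by peaks in each treated list as a percent of the vehicle list (bars from 0, with the line at 100% marking equal length), for each HOX window, all 4 windows and the whole list. CBPi is above the line in HOXA, HOXB and HOXC and reaches 116% over all windows, while all 3 treatments are below the line over their whole lists.

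When peaks of the 4 lists were merged, the windows held 75 regions, and 48 were open in every list. These made up 12 of 14 regions in HOXC, 12 of 16 in HOXD, 16 of 26 in HOXA and 8 of 19 in HOXB. A further 7 regions were in the CBPi list alone, 7 in the vehicle and CBPi lists alone, 4 in vehicle alone and 2 in EZH2i alone. The region shared by CBPi and FSK alone was the HOXA9 start. No share over the merged peaks of the whole lists stands beside these counts, so they describe the windows alone.

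HOX clusters also carry microRNA genes, among them the miR-196 family, which targets HOX transcripts. MIR196B (27169480 to 27169563, minus strand) lies between HOXA9 and HOXA10. In vehicle it fell in a gap between peaks, 36 bp from the nearest. The CBPi peak (27168967 to 27170386, area 1580) and the FSK peak (27168953 to 27170253, area 801.5) ran across it and covered all 84 bp. With EZH2i it was uncovered, 55 bp from the nearest peak, and the vehicle peak on the HOXA9 side was lost. The 2 genes of miR-196a did not lie near a peak in any list, with MIR196A1 at 3982 to 3987 bp and MIR196A2 at 5952 to 6588 bp. The mature sequences (RefSeq, GRCh38.p14, seed bases 2 to 8 in capitals) show that the family shares its seed.
miR-196b-5p: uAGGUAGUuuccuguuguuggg
miR-196a-5p: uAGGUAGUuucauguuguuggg
They match at 21 of 22 bases and differ by C12A, counted from the 5′ end of miR-196b-5p. The hairpin MIR7704 at HOXD1 was covered over all 59 bp in every list.

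HOX promoters with a vehicle peak had a higher median CpG count than those without. The promoter table held 27 promoters of 20 members, 7 of them for HOXA3, and HOXC4 and HOXC5 have the same one. The 14 with a vehicle peak within 1 kb had a median of 26 CpGs in 300 bases and the other 13 had 15. Those 13 include every HOXA3 promoter but the one at 27150950, with 0 to 25 CpGs, although HOXA3 counts as having a start-site peak. Over 22131 protein-coding promoters the medians were 26 with a peak and 5 without, so HOX promoters without a peak held more CpGs than other such promoters. The motif CCAAT, searched on both strands, was in 18 of 27 HOX promoters (66.7%) and in 34.6% of all protein-coding ones. TATAAA was in 18.5% against 9.46%, GGGCGG in 48.1% against 56.3%, and the homeodomain core TAATTA in 7.41% against 3.4%. These are letter matches in related and partly shared sequences, given as a description.

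Genes that regulate HOX clusters or bind DNA with HOX proteins were followed in the same way. Of 40 such genes, 35 had a start-site peak in the vehicle list, 34 in the EZH2i list, 35 in the CBPi list and 33 in the FSK list, beside 68.2%, 66.2%, 68.1% and 66.1% of all protein-coding genes. Of the 35, 1 lost its start-site peak with EZH2i, 1 with CBPi and 2 with FSK, counts near the background of 3.89%, 1.92% and 4.24%. The list holds PBX, MEIS and PKNOX cofactors, CDX and EVX homeobox genes, trithorax and Polycomb genes, and genes of retinoic acid response and breakdown. CDX2, an activator of HOX genes in the gut, lost its vehicle peak (area 291.5, 284 bp away) in all 3 treated lists. PBX2, a HOX cofactor, had a start peak of area 201.2 in vehicle, 250.6 with EZH2i and 705.7 with CBPi, and none with FSK, where the nearest lay 5270 bp away. EVX1 acquired one with CBPi. CDX1, CDX4, EVX2 and CYP26A1 had none in any list. Of 138 vehicle peaks on these genes EZH2i lost 42 (30.4%), CBPi 23 (16.7%) and FSK 39 (28.3%). The whole-list shares were 37.7%, 30.6% and 30.2%. No share expected from area and class stands beside these peaks, so the part of peak size and class was not tested.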

How the data were processed

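ATAC-seq was measured in 8 libraries of NCI-H295R, and the authors deposited 1 narrowPeak list for each of 4 groups. The submitters' processing notes name Bowtie2, Genrich, deepTools 2.0 and build hg38. Roles, settings, how libraries were combined and whether Tn5 ends were shifted remain not given in the sources used here. A deposited peak has a signal (area of significance), a score (scaled from area and width), the −log10 of the summit p and a summit offset, per the file columns and values as deposited by the authors. Area was used for ranks, bins, trimmed lists and mean areas, and the summit offset to place peaks in windows. Score and −log10 p were used in no comparison.

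From these, overlaps (1 bp), covered lengths, 20 area bins by class and Wilson 95% intervals were computed with Python 3.11.15, pandas 2.3.3, NumPy 2.4.6 and SciPy 1.17.1, and the overlap code was tested on simulated data. No p-value was computed. No counts were given, so depth and its precision are unknown. Starts, promoters and microRNAs came from RefSeq (GRCh38.p14). Its gene table gave no strand, and no exon or UTR annotation or genome sequence was used. Marker and regulator genes without a promoter entry were placed by either end.

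The text names all 38 listed members by their start-site peaks, per treatment the 3 lost and 3 gained peaks of largest area and any lost peak in the top 25% of area, the largest vehicle peak per cluster and regulators whose start-site peak changed. Other peaks named were chosen after their values were seen. Members and lists were chosen with earlier results of these data known. Another HOX gene is not reported here.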

Additional observations from a re-analysis of the deposited data

How the results depend on the processing

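Of 147 values under other settings, 128 stayed within the counting interval or within 1.5 times the reported count, and 19 moved. Cutting all lists to 41086 peaks by area moved the HOX peaks lost to 5.88% (EZH2i) and 1.96% (CBPi), HOXA losses to 5.56% (EZH2i), 0.0% (CBPi) and 11.1% (FSK), HOXB and HOXD losses with EZH2i to 11.1% and 7.69%, and gained peaks to 23% (CBPi) and 12.2% (FSK). Keeping the 50% of peaks with larger area in each list moved FSK losses to 40.5% (whole list 26.8%), with HOXB at 71.4% (5 of 7) and HOXC at 50.0% (4 of 8). FSK gains moved to 13.8% (whole list 12.2%), with HOXC at 33.3% (2 of 6). This setting also moved HOXC losses with EZH2i to 50.0% (4 of 8, whole list 35.4%) and EZH2i start-site peaks to 16 of 38 members. EZH2i gains moved to 0.0% (0 of 28, whole list 4.03%), with HOXB and HOXC each at 0.0% (0 of 4).

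Some settings moved no value by that measure. These were 50% of a peak covered, the spans alone, 10 area bins, and starts within 500 bp or 2 kb. The covered start and the upstream end by the cluster's strand, added after seeing the data, also moved none. Counting intervals are wide for so few peaks, so large changes can pass as unmoved. With 50% covered, FSK losses went from 21.4% to 30.0% (HOXB from 6 to 9 of 16). EZH2i losses went from 19 to 20 of 70 and CBPi losses stayed at 5 of 70. No paired analysis was possible because each group is 1 list and the libraries are not separate in it, and for the same reason leaving out a library was not run. Depth is unknown, and its part in the losses and gains was not tested.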
